A study of Homo sapiens with 2 samples.

Results

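Double-stranded RNA sensing was followed through 8 genes, RIGI, IFIH1, MAVS, TRIM25, ADAR, OAS3, IRF3 and STAT2, in HEK293T cells transfected with one of 2 small RNAs. The genes were taken as a fixed list by symbol, with the estimated counts and TPM of all RefSeq transcripts of a symbol summed, and are 8 of 28101 genes in the tables. HEK293T is a human embryonic kidney cell line transformed with adenovirus sequence and carrying the SV40 large T antigen. The control group received a non-targeting RNA and the other group a tRF-3004b mimetic, a copy of a fragment from the 3′ end of a transfer RNA. Both RNAs were given at 500 nM with a lipid reagent for reverse transfection, and poly-A RNA was collected after 120 h. Each group was 1 library with no replicate, so every difference is one between these 2 libraries, no p-value is given, and each 95% interval covers counting error only. The labels give the purpose only as expression differences after the mimetic; they name no immune question. All 8 genes were found in both libraries, and 7 of them reached a mean of at least 1 CPM, a count scaled to library size; IFIH1 did not.

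RIG-I (RIGI) and MDA5 (IFIH1) are cytosolic helicases that bind double-stranded RNA, RIG-I preferring short duplexes with 5′ triphosphate ends and MDA5 long duplexes. Both pass the signal to MAVS on mitochondria, from where kinases activate the transcription factor IRF3 and interferon genes are switched on. Secreted interferon acts through its receptor and a complex that holds STAT2 and IRF9 to raise a large set of interferon-stimulated genes, to which several of the sensors themselves belong. OAS3 makes oligoadenylates, second messengers that trigger RNA decay, and ADAR converts adenosines in self RNA duplexes to inosine, which limits sensing by MDA5.

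The sequences of the transfected RNAs are shown because they are the agents compared. Per the labels both were single strands with a 5′ phosphate and a 3′ hydroxyl, and neither was described as annealed to a partner. Capitals mark bases 2 to 8, the seed by which a small RNA in an Argonaute protein pairs with targets.
control RNA: cGUACGCGgaauacuucgauu
tRF-3004b: uCAAAUCUcgguggaaccucca
The control RNA had 21 bases and 6 uridines, and tRF-3004b had 22 bases and 5 uridines and ended in CCA, as mature transfer RNAs do. Folding of each strand on itself was predicted at -1.4 kcal/mol for the control RNA and -1.6 kcal/mol for tRF-3004b, with 4 base pairs in each. Pairing of 2 copies of the same strand was predicted at -7.3 kcal/mol for the control RNA and -10.8 kcal/mol for tRF-3004b. None of the 8 genes held the heptamer complementary to the tRF-3004b seed, AGATTTG, in the 3′ UTR of its GENCODE transcript, whereas 13.6% of 14978 searched genes held it. The heptamer for the control RNA, CGCGTAC, was also in none of the 8 and in 0.234% of searched genes. The UTRs searched ran from 69 bases in IRF3 to 9963 bases in MAVS, against a median of 920 bases over all genes.

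The depth was 19609933 estimated counts for the control RNA and 1809193 for tRF-3004b, a 10.8-fold difference in depth that set how precisely each gene could be compared. The 8 genes had 23 to 5740 counts with the control RNA and 1 to 355 with tRF-3004b. Of the markers chosen for HEK293T, the intermediate filament genes VIM, KRT18, NEFL, NEFM, INA and KRT8 and the kidney gene PAX2 were detected in both libraries. PAX2 had only 19 and 2 counts, and LHX1, also a kidney gene, had 61 counts with the control RNA and 0 with tRF-3004b. Summed, the 8 markers had 1581 CPM with the control RNA and 1084 CPM with tRF-3004b, with 5 higher and 3 lower. The log2 ratio of that sum was -0.54 (interval -0.61 to -0.48). Shorter transcripts tended to be higher and longer ones lower with tRF-3004b: the median log2 ratio (tRF-3004b over control) was 0.55 in the shortest decile of transcript length and -0.45 in the longest. Its part in the ratios of the 8 genes was not tested, and each ratio is given beside the median of its length decile. Summed markers of fibroblasts, epithelium and urothelium, and blood cells were also higher with tRF-3004b, with values given beside the interferon-stimulated genes.

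ADAR was by far the most abundant of the 8 genes per unit of length, and the sensors IFIH1 and OAS3 were near the lower end of measured genes. In TPM, a level scaled to transcript length and library total, ADAR stood at 102 with the control RNA and 56.1 with tRF-3004b. The control levels of TRIM25, STAT2 and MAVS lay close together at 10.6, 10.4 and 9.47 TPM, and RIGI and IRF3 followed at 5.91 and 5.72 TPM. IFIH1 had 0.742 TPM and OAS3 0.619 TPM with the control RNA. Among the 13748 genes with a mean of at least 1 CPM, the control TPM of ADAR was at percentile 87.7, that of TRIM25 at 41.9, that of RIGI at 30.9 and that of OAS3 at 4.68. In the tRF-3004b library the order below ADAR differed: IRF3 came next at 15.6 TPM, then TRIM25 at 10.9, MAVS at 5.95, RIGI at 4.38, STAT2 at 4.16, OAS3 at 1.52 and IFIH1 at 0.286. With 1 library a group there is no spread between samples to set beside neighbours in this order.

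**Figure D1:**
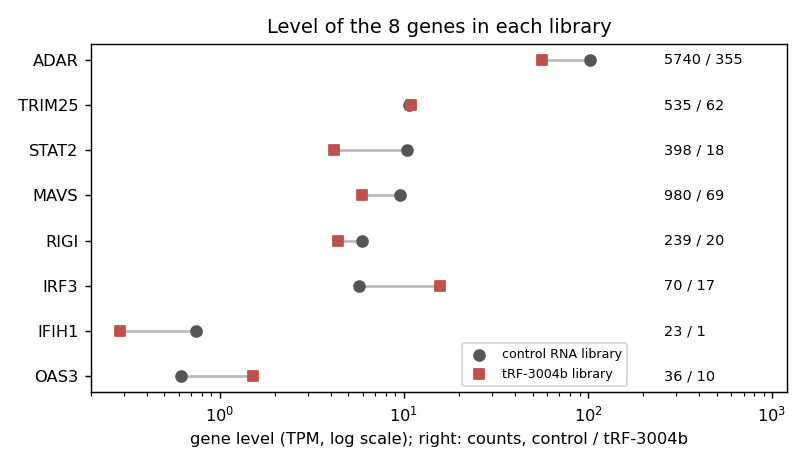
Level of each of the 8 genes in TPM (x axis, log scale) with the control RNA (grey circles) and the tRF-3004b library (red squares), with the rounded counts at the right. ADAR is the highest in both libraries (102 and 56.1 TPM), and IRF3 (5.72 and 15.6) and OAS3 (0.619 and 1.52) have the squares farthest to the right of their circles.

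Of the 7 genes that reached the level minimum 2, IRF3 and OAS3, were at least 2-fold higher with tRF-3004b, and none was at least 2-fold lower. Among all 13748 such genes, 12.2% were higher by 2-fold or more, and 14.2% were lower by as much. Counting intervals lay above 0 for IRF3 and OAS3 and below 0 for ADAR and STAT2, against 23.3% of all genes above and 28.6% below. The intervals of RIGI, MAVS and TRIM25 held 0. The median log2 ratio of the 7 genes was -0.09, and that of all measured genes was -0.11. Relative to the medians of their length deciles, which are 0 for all genes by construction, the median of the 7 genes was 0.24.

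The RNA sensor RIG-I was at nearly the same level in both libraries. RIGI (chromosome 9, 32455302 to 32526196, GRCh38) had 239 counts with the control RNA, or 12.0 CPM, and 20 counts with tRF-3004b, or 11.3 CPM. An equal level would have given 21.3 counts with tRF-3004b. The log2 ratio was -0.09 (interval -0.83 to 0.57), which leaves out a 2-fold difference in either direction. The median of its length decile was -0.33.

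MDA5 was too rare to compare. IFIH1 (chromosome 2, 162267074 to 162318684) had 23 counts with the control RNA and 1 with tRF-3004b, where an equal level would have given 2.05. Its interval ran from -6.40 to 1.59 on the log2 scale, which includes both a 2-fold higher and a 2-fold lower level. RIGI and IFIH1 shared no 31-base word with any other gene of the GENCODE transcripts on either strand.

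TRIM25, a ubiquitin ligase described as a cofactor of RIG-I activation, was slightly higher with tRF-3004b. Without regard to transcript length, the difference was within counting error. TRIM25 (chromosome 17, 56887909 to 56914049) had 535 counts with the control RNA, or 26.8 CPM, and 62 counts with tRF-3004b, or 34.9 CPM. The log2 ratio was 0.38 (interval -0.02 to 0.76), in a length decile with a median of -0.35, so relative to transcripts of its length it was at 0.73. In TPM the levels were 10.6 and 10.9. Of its 31-base words, 5.07% were shared on the opposite strand with the long non-coding gene AC015912.1, and the kit keeps strand per the labels, but whether the counting used it is not stated there.

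MAVS, the adaptor on which RIG-I and MDA5 converge, was slightly lower with tRF-3004b, by an amount within counting error. MAVS (chromosome 20, 3846834 to 3876118) had 980 counts with the control RNA, or 49.1 CPM, and 69 counts with tRF-3004b, or 38.8 CPM. The log2 ratio was -0.34 (interval -0.71 to 0.01). It lies in the longest length decile, whose median was -0.45, so relative to transcripts of its length it was at 0.11.

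IRF3, the transcription factor that MAVS signalling activates by phosphorylation, was higher with tRF-3004b on few counts. IRF3 (chromosome 19, 49659572 to 49665857) had 70 counts with the control RNA, or 3.51 CPM, and 17 with tRF-3004b, or 9.57 CPM, where an equal level would have given 6.24 counts. It was 2.69-fold higher, with a log2 ratio of 1.43 (interval 0.59 to 2.23). Its length decile was taken from 1 transcript, NM_001197124 of 1214 bases, and is the lowest, with a median of 0.55. Relative to that IRF3 stood at 0.88. NM_001571, which had most of the control counts, has 1595 bases, a length in decile 2, whose median was 0.29. The neighbouring gene BCL2L12 lies on the opposite strand and shares 16.1% of the 31-base words of IRF3, so reads of that stretch cannot be told apart if the counting did not use strand. BCL2L12 itself had 172 and 22 counts and a log2 ratio of 0.52 (interval -0.19 to 1.17).

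OAS3, the largest of the oligoadenylate synthetases and itself an interferon-stimulated gene, was higher with tRF-3004b at a very low level. OAS3 (chromosome 12, 112938474 to 112973251) had 36 counts with the control RNA, or 1.81 CPM, and 10 with tRF-3004b, or 5.63 CPM, where an equal level would have given 3.21 counts. It was 3.02-fold higher, with a log2 ratio of 1.60 (interval 0.46 to 2.68), in a length decile with a median of -0.35. With gene TPM and 1 added the log2 ratio was 0.64.

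ADAR, whose long form is induced by interferon, was lower with tRF-3004b and was the most precisely measured of the genes. ADAR (chromosome 1, 154582057 to 154627997) had 5740 counts with the control RNA, or 288 CPM, and 355 with tRF-3004b, or 199.8 CPM, where an equal level would have given 511 counts. It was 1.44-fold lower, at a log2 value of -0.53 (interval -0.69 to -0.37). Its length decile had a median of -0.35, and relative to that ADAR was at -0.18.

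STAT2, an interferon signal transducer, had the lowest log2 ratio of the 7 genes that reached the level minimum. STAT2 (chromosome 12, 56341597 to 56360107) had 398 counts with the control RNA, or 19.96 CPM, and 18 with tRF-3004b, or 10.1 CPM, where an equal level would have given 35.5 counts. It was 1.96-fold lower, at a log2 value of -0.97 (interval -1.75 to -0.30). Relative to the median of its length decile it was at -0.74, and with total counts in place of TMM scaling it was at -1.02, just past 2-fold.

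**Figure D2:**
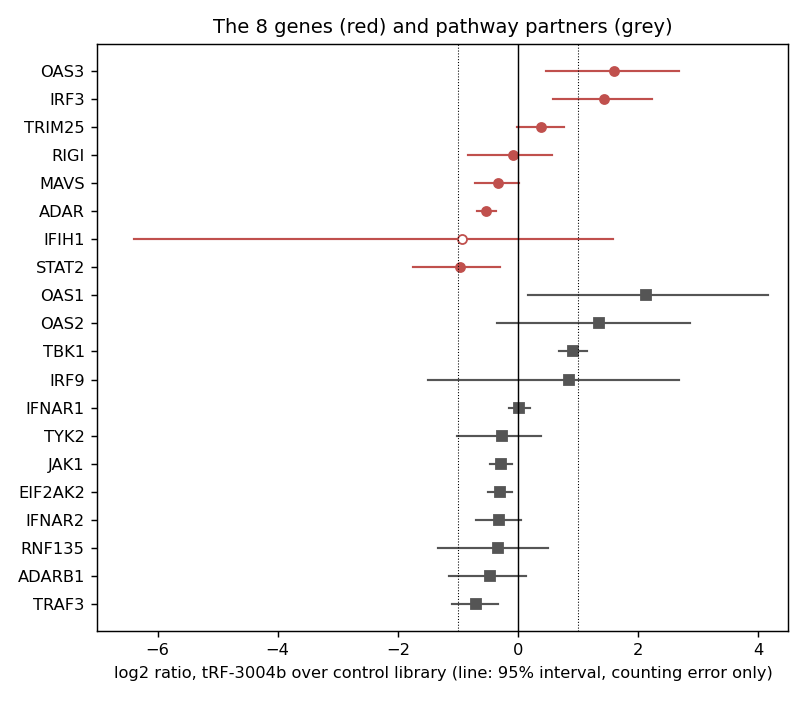
Log2 ratio, tRF-3004b over control (x axis), for the 8 genes (red circles, IFIH1 open because it missed the level minimum) and a selection of pathway partners that reached it (grey squares); lines are 95% intervals for counting error and dotted lines mark 2-fold. OAS3 and IRF3 lie beyond 2-fold higher, STAT2 lies just inside 2-fold lower, and the line of IFIH1 crosses both.

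**Figure D3:**
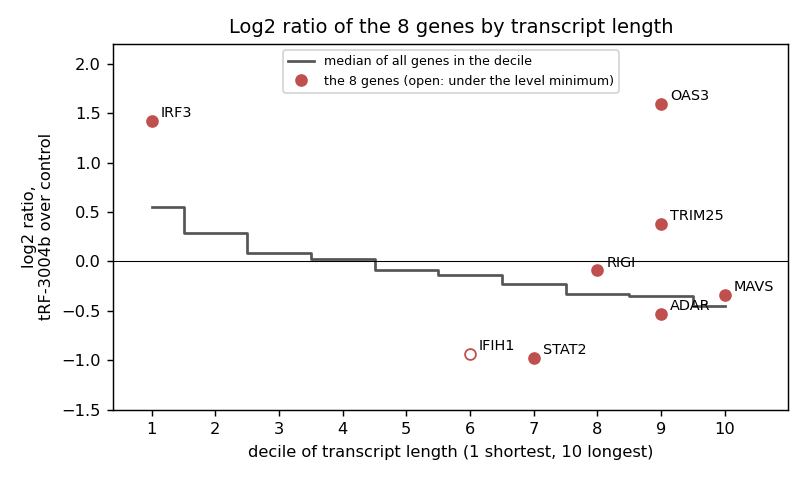
Log2 ratio of the 8 genes (red points, named) by decile of transcript length, over the median of all genes in each decile (grey steps). The grey steps go from 0.55 to -0.45, 6 of the 8 genes lie in deciles 7 to 10, and OAS3 and STAT2 lie on opposite sides of the steps.

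The genes MAVS, ADAR, IRF3 and STAT2 have several RefSeq transcripts in the files, and the split among them differed between the libraries. kallisto divides reads that transcripts share by estimation, an uncertainty that the binomial intervals of these shares do not hold. MAVS had 52.1% of its control counts (exact interval 49.0% to 55.3%) in NR_037921, a transcript that RefSeq classes as non-coding, and 73.2% (61.9% to 83.7%) with tRF-3004b. The coding transcript NM_020746 had the rest, 469 counts with the control RNA and 18.6 with tRF-3004b. In TPM the coding transcript stood at 4.496 and 1.58, and the non-coding one at 4.97 and 4.37. As kallisto split it, the lower MAVS total with tRF-3004b lay mostly in the coding entry. Both entries, of 11558 bases (NR_037921) and 11731 bases (NM_020746), are paired with the same GENCODE transcript, for a protein of 540 amino acids. How well the counts can be divided between them was not tested.

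IRF3 counts lay in 2 transcripts. NM_001571, paired with a GENCODE transcript for a protein of 427 amino acids, had 57.4 of the control counts, or 81.5% (interval 70.3% to 89.7%). It had 0 of the 17 counts with tRF-3004b, for which the exact interval allows a share of up to 19.5%. All counts with tRF-3004b fell to NM_001197124, paired with a protein of 300 amino acids, which had 13.0 counts with the control RNA. The 0 for NM_001571 rests on how kallisto split 17 counts.

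STAT2 showed a like pattern. Its transcript NM_005419, for a protein of 851 amino acids, had 254 counts with the control RNA and 18.0 with tRF-3004b. NM_198332, for a protein of 847 amino acids, had 144 control counts, or 36.1% (interval 31.5% to 41.1%). It had 0 of the 18 counts with tRF-3004b, for which the exact interval allows up to 18.5%.

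ADAR is transcribed from more than one promoter, giving a long protein (p150) that interferon induces and a short constitutive one (p110). The most abundant of its 10 transcripts, NM_001365046, had 70.7% of control counts and 74.0% of tRF-3004b counts, and it had no GENCODE 29 partner to give its protein length. The 3 transcripts paired with long proteins of 1200 or 1226 amino acids had together 2.01 counts with the control RNA and 0 with tRF-3004b. The 2 transcripts paired with the short protein of 931 amino acids had 1115 counts, or 19.4%, with the control RNA and close to 0 with tRF-3004b. The remaining 80.5% of control counts and nearly all tRF-3004b counts were in 5 unpaired transcripts, so the balance of the 2 protein forms could not be derived. NM_001365045 and NM_001365048 went the other way from the short entries, with 13.6 and 3.65 counts with the control RNA and 56.9 and 35.3 with tRF-3004b.

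**Figure D4:**
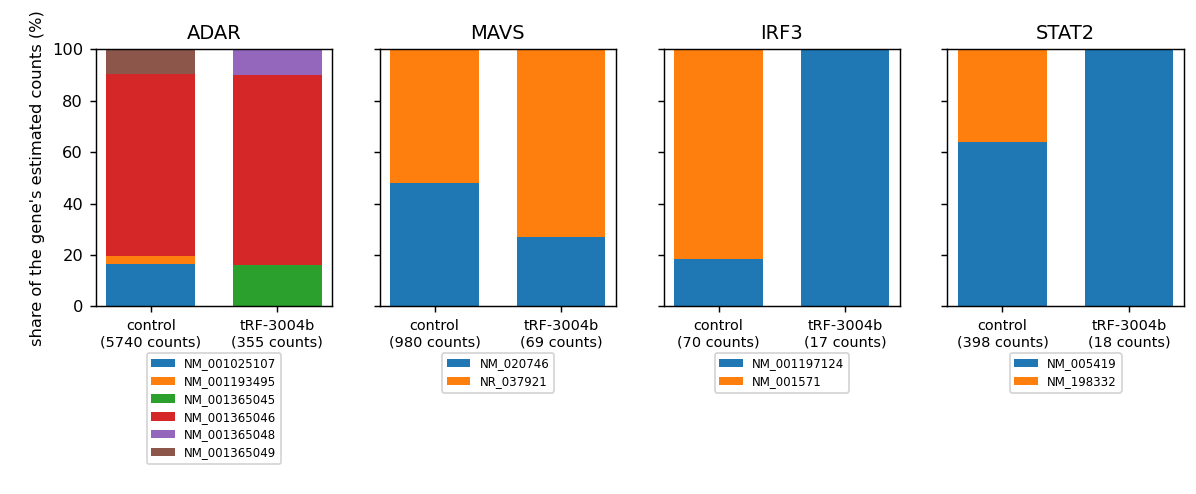
Share of each gene's estimated counts (y axis, percent) by RefSeq transcript in the control and tRF-3004b libraries, for the 4 genes with several transcripts; transcripts under 1% in both libraries are left out. In IRF3 and STAT2 one transcript takes all counts of the tRF-3004b library, and in ADAR the transcript NM_001365046 leads in both, at 70.7% and 74.0%.

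Interferon transcripts were almost undetected in both libraries. Of 21 interferon genes, including IFNB1, the type I gene that IRF3 drives, 20 had 0 counts in both libraries, and IFNL2 had 1 count with tRF-3004b. A count of 0 allows a level of up to 0.150 CPM with the control RNA and 1.69 CPM with tRF-3004b, so the second limit is the looser one. A single collection at 120 h gives no view of earlier times.

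Among the other RNA sensors and cofactors, values lay on both sides of 0. Of 31 genes 23 reached the level minimum, with 13 higher and 10 lower and a median log2 ratio of 0.06. By 2-fold or more, 5 were higher (ZBP1, OAS1, OAS2, TARBP2 and PQBP1) and 1 was lower (DDX60), beside 12.2% and 14.2% of all measured genes. The interval of OAS2 held 0 (-0.34 to 2.86), and its TPM was 1.23 with the control RNA and 1.17 with tRF-3004b. ZBP1 and OAS1 had under 1 CPM with the control RNA and could reach the minimum only by being high with tRF-3004b. Of the 21 genes with at least 1 CPM with the control RNA, 3 were higher and 1 was lower by 2-fold or more. The shares of all 13531 genes chosen that way were 7.47% and 17.4%. At a mean of at least 5 CPM 2 of 20 were higher and 1 was lower, and the share of all genes at that minimum was not computed. PKR (EIF2AK2), the kinase that stops translation on double-stranded RNA, had 2963 and 215 counts and a log2 ratio of -0.30 (interval -0.50 to -0.10). RNF135, a ubiquitin ligase that acts on RIG-I, was at -0.34 (interval -1.32 to 0.50).

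The highest of the sensor list at a mean of at least 5 CPM were TARBP2, a double-stranded RNA binding partner of Dicer, at 1.28 (interval 0.54 to 1.99), and PQBP1 at 1.27. The lowest were DDX60 at -1.13 (interval -2.22 to -0.24) and MEX3C at -0.93. Many dedicated sensors were barely present. DHX58, the third RIG-I-like receptor, and TLR7 had 0 counts in both libraries, and TLR3 had 5 and 2. The DNA sensing pair CGAS and STING1 had 6 and 2 counts for CGAS and 2 and 1 for STING1. OAS1 had 9 and 4 counts, OAS2 21 and 5 and OASL 2 and 1, which puts OAS3 with 36 and 10 as the most counted of its family.

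Genes of the relay from MAVS to IRF3 lay on both sides of 0. Of 26 genes 21 were measured, 8 higher and 13 lower, with a median of -0.06. By 2-fold or more, 1 was higher (TRAF2) and 3 were lower (TRAF5, IKBKG and TBKBP1), beside 12.2% and 14.2% of all measured genes. IKBKG had 45 and 1 counts and TBKBP1 59 and 0. TBK1, the kinase that phosphorylates IRF3, had 1037 and 174 counts and a log2 ratio of 0.91 (interval 0.67 to 1.15). Its relative IKBKE had only 4 and 2 counts, and the interferon-induced factor IRF7 had 2 and 0. The adaptor ligases TRAF3, TRAF6 and TRAF5, which link MAVS to its kinases, stood at -0.70, -0.81 and -1.08 with intervals below 0. They have long transcripts, and relative to the medians of their length deciles they were at -0.25, -0.37 and -0.84. On that scale TBK1 was at 0.998 and TRAF2 at 1.00. TRAF2 was at 1.03 (interval 0.11 to 1.88) on 76 and 14 counts.

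Of 23 measured genes that restrain sensing 16 were lower and 7 higher, while of all 13748 measured genes 7626 were lower and 6122 higher. The list's median was -0.18 beside -0.11 for all genes. Intervals lay above 0 for 4 genes, below 0 for 8 and held 0 for 11. Of all measured genes 23.3% had intervals above 0 and 28.6% below. RNF125, a ligase that marks RIG-I and MDA5 for degradation, had 1739 and 83 counts and was at -0.90 (interval -1.24 to -0.58). TNFAIP3 was at -1.19 (interval -2.68 to -0.06) with 6 counts with tRF-3004b. ATG5, an autophagy protein, was at 0.90 (interval 0.64 to 1.15). Genes of double-stranded RNA editing, binding and decay split evenly, 9 higher and 9 lower of 18 measured, with a median of -0.05. ILF2 and RNASEH2B were the highest at 0.72 and 0.70, and XRN1, the cytoplasmic exonuclease, and TASOR, a silencer of transposable elements, the lowest at -1.19 and -0.79. ADARB1, the second editing enzyme, was at -0.47 (interval -1.15 to 0.14).

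Of 23 receptor and JAK-STAT genes 20 were measured, 9 higher and 11 lower, with a median of -0.21. None was past 2-fold in either direction, beside 12.2% and 14.2% of all measured genes. Intervals lay above 0 for 3, below 0 for 6 and held 0 for 11, beside 23.3% above and 28.6% below of all measured genes. The feedback inhibitor SOCS1 had 0 counts in both libraries. The receptor chain IFNAR1 had 3402 and 308 counts and a log2 ratio of 0.02 (interval -0.15 to 0.19), and IFNAR2 was at -0.31 (interval -0.70 to 0.05). The kinases JAK1 and TYK2 were at -0.28 (interval -0.47 to -0.10) and -0.27 (interval -1.01 to 0.38). IRF9, the DNA-binding partner of STAT2, had 18 and 3 counts. At a mean of at least 5 CPM IL10RB and PTPN2 were the highest at 0.88 and 0.53, and STAT3 and IFNGR2 the lowest at -0.59 and -0.54.

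Interferon-stimulated genes as a whole held the same share of both libraries, and the high ratios among them rested on few counts. Summed over 60 genes, none of them among the 8, they had 724 CPM with the control RNA and 727 CPM with tRF-3004b, which is 0.0052 on the log2 scale (interval -0.08 to 0.09). Of these 37 were measured, 27 higher and 10 lower, with a median of 0.65. By 2-fold or more, 14 were higher and 4 were lower (EPSTI1, HELZ2, NMI and DDX60), beside 12.2% and 14.2% of all measured genes. For 9 of the 37 the control level was under 1 CPM, so they could pass only by being high with tRF-3004b, and all 9 were higher on 3 to 9 counts there. Among the 28 genes with at least 1 CPM with the control RNA the median was 0.14, with 6 higher and 4 lower by 2-fold or more. Of all 13531 genes chosen that way, 7.47% were higher and 17.4% lower by 2-fold or more, with a median of -0.19. The 17 genes with a mean of at least 5 CPM had a median of 0.037.

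Values of well-known interferon-stimulated genes lay on both sides of 0. IFIT1 had 188 and 14 counts and a log2 ratio of -0.26 (interval -1.16 to 0.52), and IFIT5 had 1062 and 127 counts at 0.42 (interval 0.15 to 0.69). IFIT2 and IFIT3 had 7 and 14 counts with the control RNA and 0 with tRF-3004b. ISG15, a ubiquitin-like modifier, had 12 and 5 counts at 2.08 (interval 0.37 to 3.83). The guanylate-binding protein GBP1 had 17 and 8 counts, the restriction factor SAMD9 31 and 12, and the membrane protein IFITM1 26 and 10. The chemokines CXCL11 and CCL5 had 3 and 9 counts and 1 and 6 counts. At a mean of at least 5 CPM the highest were SP100, a nuclear body protein, at 1.33 (interval 0.61 to 2.03) and TRIM5 at 0.90, and the lowest DDX60 and HERC6 at -1.13 and -0.98. IFIT2, IFIT3, ISG15, GBP1, SAMD9, IFITM1 and the chemokines were chosen as examples after their values were seen.

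Markers of other cells were higher in the same library, those of fibroblasts also at higher levels than the rare interferon-stimulated genes. The 8 blood cell markers summed to 3.31 CPM with the control RNA and 32.1 CPM with tRF-3004b, with 5 measured and all 5 higher. PTPRC, the pan-leukocyte surface phosphatase, had 10 and 7 counts, HLA-DRA 5 and 14, and the T cell and monocyte markers CD3E and CD14 had 0 and 2 each. The fibroblast markers summed to 36.3 and 117 CPM, with 6 of 7 measured higher, and the epithelial and urothelial markers to 12.4 and 47.3 CPM, with all 6 measured higher. KRT5, of the epithelial list, had 0 counts in both. Their part in the ratios of OAS3 and of the rare interferon-stimulated genes was not tested.

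**Figure D5:**
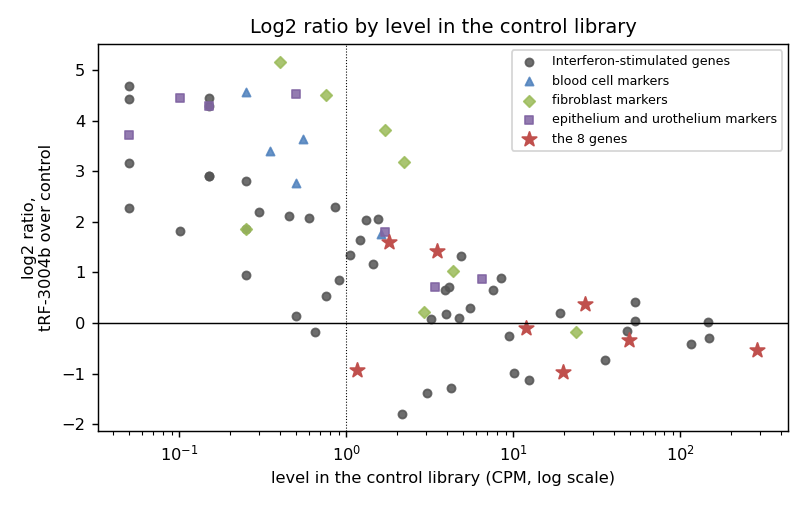
Log2 ratio (y axis) against the level with the control RNA (x axis, CPM, log scale; the dotted line marks 1 CPM) for interferon-stimulated genes, markers of 3 other cell groups and the 8 genes (stars), for genes with counts in both libraries. Points above a log2 ratio of 3 have control levels of at most 2.21 CPM, that of the fibroblast marker COL3A1, and include markers of all 3 groups.

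Of 20 targets of NF-kB, the other arm below MAVS, 9 were measured, 4 higher and 5 lower, with a median of -0.22. IL6, TNF, IL1B, CCL2 and LTB had 0 counts in both libraries. SOD2, the mitochondrial superoxide dismutase, had 6707 and 632 counts and was at 0.08 (interval -0.04 to 0.20), and NFKBIA, the feedback inhibitor, was at -0.22 (interval -1.16 to 0.59). At a mean of at least 5 CPM TNFAIP2 was the highest at 2.94 (interval 2.003 to 4.02) on 22 and 16 counts, and TNFAIP3 and NFKB2 the lowest at -1.19 and -1.04. TRAF1, below that level, had 43 and 0 counts.

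The promoters of 2 of the genes carry the letters of the interferon-stimulated response element, the site bound by the complex that holds STAT2 and IRF9. GAAANNGAAA was searched on both strands of RefSeq promoter windows (GRCh38.p14, 250 bases before to 50 bases after each start), and overlapping matches were counted. The table held 9 windows for 7 of the genes, all but IRF3. The motif was in 3.57% of all 35116 windows, in 2.81% of those of genes with a mean of at least 1 CPM and in 59.4% of 64 windows of the interferon-stimulated list. IFIH1 had 3 matches and OAS3 had 2, and the windows of RIGI, MAVS, TRIM25, ADAR and STAT2 had none. Single matches with their surroundings are shown on the strand of the gene, with the motif in capitals for the 2 genes whose windows held it.
IFIH1, 21 bases before the start: gaagagaatcGAAACAGAAAccaaagtcag
IFIH1, 159 bases before the start, motif on the opposite strand: gagaattcgcTTTCCTTTTCtgtttcccgc
OAS3, 143 bases before the start: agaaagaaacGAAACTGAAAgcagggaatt
OAS3, 12 bases before the start: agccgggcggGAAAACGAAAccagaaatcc
The IFIH1 windows lie at chr2:162318686-162318715 and chr2:162318824-162318853 on the minus strand, and the OAS3 windows at chr12:112938321-112938350 and chr12:112938452-112938481 on the plus strand. Of the 2 genes with these letters OAS3 had 36 and 10 counts and IFIH1, too rare to compare, had 23 and 1.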

How the data were processed

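HEK293T poly-A RNA went through a directional library kit, per the labels' protocols, giving 1 library per group. The tool kallisto 0.46.1 and the build GRCh38 come from the submitters' processing notes. The deposited tables list 70866 RefSeq transcripts, each with an estimated count that need not be whole, a TPM value, a length and an effective length, per the file headers. Strand setting, trimming and annotation release: not given in the sources used here.

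Gene symbols came from RefSeq's table for 70245 transcripts and from GENCODE 29 for 293; 328 unnamed ones, with 0.0723% of control and 0.0713% of tRF-3004b counts, were left out. Gene totals are sums of estimated counts, rounded to whole numbers. Scaling used TMM (edgeR 4.0.16, R 4.3.3), with factors of 1.02 for control and 0.983 for tRF-3004b; the edgeR test was not used, as 1 library a group leaves no spread. Log2 ratios have 0.5 counts added at a common library size, and intervals are exact conditional (Clopper-Pearson, 95%) on counts without them. The labels mention no molecular identifiers, so reads may be copies of one molecule; intervals and limits from a count of 0 (3 counts) cover counting error only. Calculations were tested on simulated counts. RNA folding used ViennaRNA 2.7.2. The 3′ UTRs are those of GENCODE 29, and 31-base words were compared among its transcripts.

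The 8 genes, the gene lists, markers and tests were chosen with earlier results of these data known. Named are the 8 genes, a list of partners, and the 2 highest and 2 lowest of each list at a mean of at least 5 CPM; other examples were chosen after their values were seen. Some genes that this rule names are not reported here. Other settings tried were scaling by total counts or by size factors of DESeq2 1.42.0, upper quartile factors, gene TPM with 1 added, 5 counts added, the median of the length decile subtracted, other level minimums and, chosen after seeing the data, a minimum on the control library alone.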

Additional observations from a re-analysis of the deposited data

How the results depend on the processing

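The direction of TRIM25, ADAR, OAS3, IRF3 and STAT2 was the same under all 6 alternatives for scaling, unit, added count and length. RIGI went above 0 with upper quartile factors (0.03) and with the length decile median subtracted (0.24), and MAVS with the latter (0.11). IFIH1 was below 0 under all 6, but its 23 and 1 counts and its interval of -6.40 to 1.59 leave its direction unknown. Of 48 such values of the 8 genes, 45 stayed within the counting interval. They include those of IFIH1, whose interval is too wide for such changes to leave it. The median of all genes shifted by 0.12 with upper quartile factors, by -0.28 with gene TPM and by 0.11 with the length medians subtracted. The count of genes at least 2-fold higher went from 2 to 1 with gene TPM and 1 added (OAS3 at 0.64) and to 1 with length medians subtracted (IRF3 at 0.88). The IRF3 value used the decile of its transcript of 1214 bases, not that of NM_001571. The count at least 2-fold lower went from 0 to 1 with total counts (STAT2 at -1.02) and to 1 with gene TPM (STAT2 at -1.14), and 2 genes had an interval below 0. With gene TPM the median of the MAVS to IRF3 relay was -0.39 and that of double-stranded RNA editing and decay -0.32. The median of interferon-stimulated genes was 0.037 at a mean of at least 5 CPM, and their sum was at 0.12 with upper quartile factors. Of 63 alternatives for list medians, 60 stayed within the median's interval. A split of ADAR by protein form was not run beyond the paired transcripts, which held 19.4% and 0.0349% of control counts. No paired analysis was possible because each group is 1 library. The 10.8-fold difference in depth limits every value that rests on under about 20 counts in the tRF-3004b library.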
